A study of Mus musculus with 2 samples.

Results

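The insulin-like growth factor (IGF) system was examined in mouse gastrocnemius, the large calf muscle, through 9 genes chosen by name. These were the growth factor Igf1, the IGF receptors Igf1r and Igf2r, and the 6 binding proteins Igfbp2, Igfbp3, Igfbp4, Igfbp5, Igfbp6 and Igfbp7. They are 9 of 55536 genes in the deposited gene tables, and all 9 had a row in each table. The series holds 1 group of 2 total RNA libraries, replicate 2 and replicate 1, from female B6CASTF1/J mice aged 36 days, a first-generation hybrid of the C57BL/6J and CAST/EiJ strains, with no treatment named, and 300 ng of RNA went into each library together with synthetic spike-in RNAs. Each tissue sample has its own number in the labels, but separate animals are not stated, so a difference between the libraries may be technical. With 1 sample on each side, no test of a condition exists and no p-value is given.

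IGF1 is a secreted relative of insulin. Liver supplies most of the circulating hormone under the control of growth hormone, while muscle makes its own IGF1 for local use. Igf1r is a receptor tyrosine kinase that signals growth through insulin receptor substrates, PI3K, Akt and mTOR. Igf2r, the cation-independent mannose 6-phosphate receptor, carries lysosomal enzymes and takes up IGF2 for degradation without a kinase of its own. The IGF-binding proteins hold IGFs outside the cell, lengthen their life and keep them from or bring them to the receptor. Igfbp7 binds IGFs weakly and is counted as a distant relative. In muscle, IGF1 is known as a driver of fibre growth, and Igfbp5 as the binding protein that differentiating muscle cells secrete.

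The sequences that separate the Igf1 transcripts described further on are shown first. Mouse Igf1 (ENSMUSG00000020053.18) lies on chromosome 10 at chr10:87858265-87937042, forward strand, in GRCm38, the mm10 assembly. A 52-base exon at chr10:87915298-87915349, is skipped by 4 of its 8 transcripts and included by 3, while Igf1-201 reads on past its end. In Igf1-206 it lies between the third exon and the last one. Both coding ends shown begin with the same 30 bases of the third exon, and the coding bases that follow differ. In rodents the skipping form is called IGF1-Ea and the including form IGF1-Eb or mechano growth factor. Capitals mark the 52-base exon in Igf1-206, whose line ends with the last 23 coding bases, and the 57 coding bases of the last exon in Igf1-202, both written 5′ to 3′ from the GENCODE M21 transcripts. The lines span chr10:87913771-87930697 and chr10:87913771-87930731.
Igf1-206 coding end: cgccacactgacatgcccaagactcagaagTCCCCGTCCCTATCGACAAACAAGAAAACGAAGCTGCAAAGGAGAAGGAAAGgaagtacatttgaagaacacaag
Igf1-202 coding end: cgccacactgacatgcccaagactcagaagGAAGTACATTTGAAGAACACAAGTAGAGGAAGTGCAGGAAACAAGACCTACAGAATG
The last exon enters the coding sequence directly in Igf1-202. In Igf1-206 it follows the capitals, and coding stops earlier in it.

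The coding starts also differ, because the transcripts splice to the same next exon from 1 of 2 leader exons. In Igf1-205, Igf1-207 and Igf1-208 a further exon lies before the leader. The upstream leader ends at position 87859412 of chromosome 10, and 3 of the 8 annotated transcripts use it. The downstream leader is used by the other 5. Capitals mark the coding bases of the leader, 63 in Igf1-202 and 15 in Igf1-206, and the lower-case bases are the first 30 of the shared exon. The lines span chr10:87859350-87864760 and chr10:87861371-87864760.
Igf1-202 coding start: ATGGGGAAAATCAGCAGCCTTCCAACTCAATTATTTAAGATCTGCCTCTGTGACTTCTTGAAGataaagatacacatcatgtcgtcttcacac
Igf1-206 coding start: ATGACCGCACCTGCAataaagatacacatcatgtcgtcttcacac
These leaders code for different starts of the signal peptide, which is removed from the secreted protein.

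IGF-binding proteins are known for a block of glycine and cysteine codons in the part of the protein that holds IGF. An in-frame search of the leading coding transcript found it once in each of Igfbp2, Igfbp3, Igfbp4 and Igfbp5, and not in the other 5 genes, which says only that this exact order of codons is not in those coding sequences. It is shown because it sets apart 4 of the 6 binding proteins. Capitals mark the 4 cysteine codons. The positions are chr1:72824766-72824813 on the forward strand for Igfbp2, chr11:7213554-7213601 on the reverse strand for Igfbp3, chr11:99041638-99041685 on the forward strand for Igfbp4 and chr1:72873954-72874001 on the reverse strand for Igfbp5.
Igfbp2 block: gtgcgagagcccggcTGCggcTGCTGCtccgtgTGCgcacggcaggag
Igfbp3 block: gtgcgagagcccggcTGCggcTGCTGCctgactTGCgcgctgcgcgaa
Igfbp4 block: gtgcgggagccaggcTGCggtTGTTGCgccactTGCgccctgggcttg
Igfbp5 block: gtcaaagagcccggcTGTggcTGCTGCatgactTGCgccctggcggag
Over these 48 bases, Igfbp3 and Igfbp5 had 38 in common, and the other pairs had 33 to 37. The 6 binding protein coding sequences held 16 to 20 cysteine codons each, with 16 in Igfbp6 and 20 in Igfbp4, among 238 to 305 codons.

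The libraries held 40461280 estimated gene counts in replicate 2 and 37491946 in replicate 1. The muscle fibre list, which includes Acta1 and Ckm, summed to 76880 TPM in replicate 2, against 103958 TPM in replicate 1. The libraries differed in their make-up. The slow-fibre genes Myh7, Tnnt1 and Myl3 had 472, 321 and 465 TPM, in that order of genes, in replicate 2, against 0.24, 1.19 and 0.08 TPM in replicate 1. Whether both samples held the same part of the muscle is not given in the sources used here. Fat cell markers summed to 114 TPM in replicate 2, against 344 TPM in replicate 1, with 5 of the 6 that averaged at least 100 counts more than 1.5-fold lower in replicate 2, and Pparg, below that count, at a ratio of 0.473. Nerve and Schwann cell markers summed to 36.4 TPM in replicate 2, against 119 TPM in replicate 1, with 4 of the 4 at that count more than 1.5-fold lower, as were S100b and Sox10 below it. Red blood cell markers summed to 296 TPM in replicate 2, against 1691 TPM in replicate 1, with 3 of 3 more than 1.5-fold lower. Tendon markers summed to 83.0 TPM in replicate 2, against 59.4 TPM in replicate 1, with 3 of the 4 at that count more than 1.5-fold higher in replicate 2 and Mkx, below it, at a ratio of 1.69, and lymphocyte markers to 5.36 TPM in replicate 2 and 0.88 in replicate 1. Sums for fibroblasts were 720 TPM in replicate 2 and 699.7 in replicate 1, for endothelium 56.4 TPM in replicate 2 and 48.4 in replicate 1, for pericytes and smooth muscle 101 TPM in replicate 2 and 87.4 in replicate 1, for macrophages 26.8 TPM in replicate 2 and 24.5 in replicate 1, for satellite cells 11.8 TPM in replicate 2 and 12.7 in replicate 1, and for liver 3.35 TPM in replicate 2 and 0.39 in replicate 1. No marker was at 0 counts in both libraries, and the liver marker Ttr was at 0 in replicate 1.

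TPM is the share of all transcripts after division by length, on a fixed total. Of the 9 genes, 8 were detected, here at 1 TPM or more in both libraries, and Igfbp2 was the exception. Igfbp5 led by a wide margin. In order of mean TPM it was followed by Igfbp7, Igf2r, Igfbp6, Igfbp4, Igfbp3, Igf1, Igf1r and Igfbp2. Igfbp5, Igfbp7, Igf1r and Igfbp2 held the same place in both libraries. The ranges of Igf2r and Igfbp4 overlapped, as did those of Igfbp6 and Igfbp4 and those of Igfbp3 and Igf1, so these neighbours were not separated beyond their spread.

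**Figure D1:**
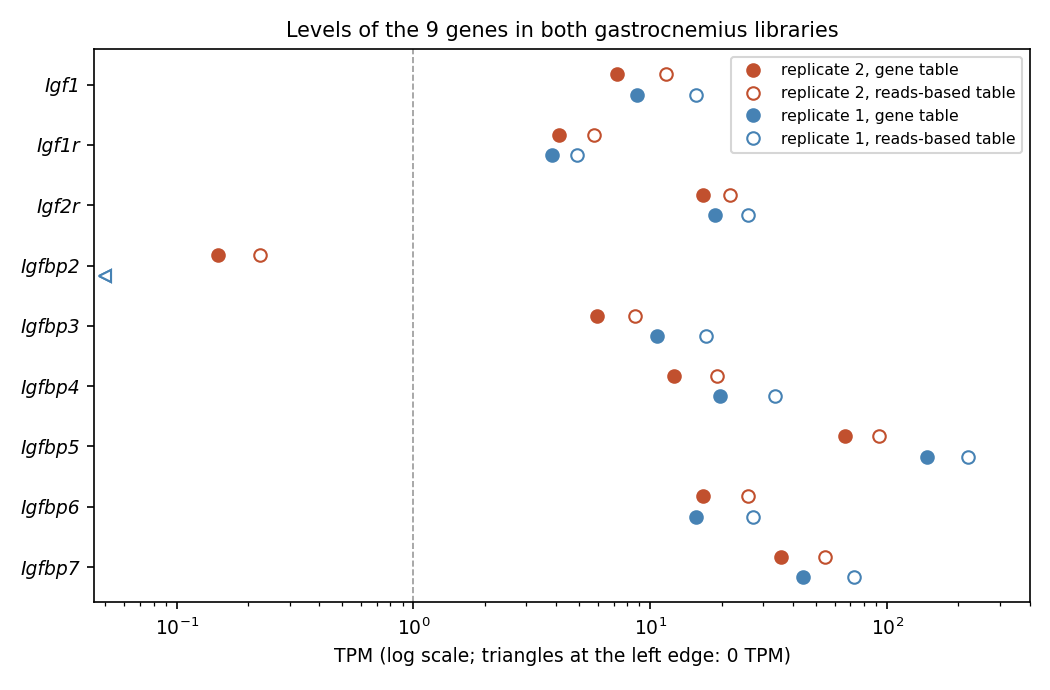
TPM of each gene on a log axis, with replicate 2 above replicate 1, filled points for the gene table and open points for the table made directly from reads; the dashed line is 1 TPM. Igfbp5 lies furthest right in both libraries, and Igfbp2 lies left of the line, at 0.15 TPM in replicate 2, against 0 TPM in replicate 1.

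Igf1, the ligand, was present at a moderate level. It had 7.22 TPM in replicate 2, against 8.82 TPM in replicate 1, from 1065 counts in replicate 2 and 1090 in replicate 1, and averaged 8.02 ± 1.13 TPM (SD, n = 2). That mean stood at rank 4712 of the 9955 protein-coding genes detected in both libraries. The scaled count ratio, replicate 2 over replicate 1, was 0.932 with a 95% counting interval of 0.855 to 1.01, which includes 1. That interval covers counting error only and holds for 1 scaling. Scaled to the spike-in total, the ratio was 1.22. Ratios were scaled by TMM, which takes most genes as level between libraries. The second ligand, Igf2, lies outside the 9 genes and belongs with the imprinted growth genes: it had 34.1 TPM in replicate 2, against 82.3 TPM in replicate 1. Igf1 was thus at 0.212 of the Igf2 level in replicate 2 and at 0.107 in replicate 1, in TPM. A short antisense gene, Igf1os, overlaps Igf1 and had 0 counts in replicate 2 and 2 in replicate 1.

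The receptors differed in level from each other and, under TMM scaling, little between the libraries. Igf1r (ENSMUSG00000005533.10, chr7:67952827-68233668) had 4.13 TPM in replicate 2, against 3.83 TPM in replicate 1, the lowest of the 8 detected genes, from 1281 counts in replicate 2 and 1059 in replicate 1. Its ratio was 1.15 with a counting interval of 1.06 to 1.25. Igf2r (ENSMUSG00000023830.14, chr17:12682406-12769664) had 16.8 TPM in replicate 2, against 18.7 TPM in replicate 1, from 4692 counts in replicate 2 and 4973 in replicate 1. Its ratio was 0.8996 with an interval of 0.864 to 0.936. Both intervals leave out 1, and both ratios are far inside 1.5-fold under TMM scaling. Scaled to the spike-in total, the ratio was 1.51 for Igf1r, just beyond 1.5-fold, and 1.18 for Igf2r. Igf2r was at 4.06 times the TPM of Igf1r in replicate 2 and at 4.87 times in replicate 1.

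Igf1r lay below the insulin receptor and the smaller mannose 6-phosphate receptor in both libraries. The insulin receptor Insr, which belongs with the insulin signalling genes, had 24.5 TPM in replicate 2, against 19.6 TPM in replicate 1, and the level of Igf1r was 0.168 of it in replicate 2 and 0.196 in replicate 1. M6pr, the smaller mannose 6-phosphate receptor, had 8.13 TPM in replicate 2, against 9.66 TPM in replicate 1, below Igf2r in both. The antisense RNA Airn, known for silencing the paternal copy of Igf2r, overlaps 28354 bases of that gene. It had 106 counts in replicate 2 and 109 in replicate 1, and it was picked for mention after its values were seen. This overlap is one of whole gene spans, introns included. Whether the counting used strand is not given in the sources used here. The deposited posterior SD of the Igf2r count was 0 in both libraries, so no counted reads of Igf2r were divided with another gene.

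Igfbp5 was the dominant binding protein and, of the 8 detected genes, the one that differed most between the libraries. Igfbp5 (ENSMUSG00000026185.8, chr1:72857932-72874884) had 66.4 TPM in replicate 2, against 147 TPM in replicate 1, from 12623 counts in replicate 2 and 26504 in replicate 1. Its mean of 107 ± 57.1 TPM (SD, n = 2) stood at rank 442 of the 9955 detected protein-coding genes. The ratio, replicate 2 over replicate 1, was 0.454 with a counting interval of 0.445 to 0.464, a log2 ratio of -1.14. The ratio ranked 96 from the lowest of the 9996 genes that averaged at least 100 counts. Counting error was small beside this gap, and with 2 libraries biological and technical spread cannot be told apart.

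Igfbp3, the main carrier of IGFs in blood, was the other gene past 1.5-fold. Igfbp3 (ENSMUSG00000020427.11, chr11:7206086-7213923) had 5.97 TPM in replicate 2, against 10.7 TPM in replicate 1, from 446 counts in replicate 2 and 752 in replicate 1. The ratio was 0.566 with an interval of 0.502 to 0.637. Igfbp4 (ENSMUSG00000017493.12, chr11:99041244-99054392), an inhibitor of IGF action that the protease Pappa cleaves, had 12.6 TPM in replicate 2, against 19.7 TPM in replicate 1, from 850 counts in replicate 2 and 1129 in replicate 1. Its ratio of 0.718, with an interval of 0.656 to 0.785, did not reach 1.5-fold. Igfbp7 (ENSMUSG00000036256.13, chr5:77349240-77408041), a vessel-associated secreted protein, had 35.6 TPM in replicate 2, against 44.0 TPM in replicate 1, from 1168 counts in replicate 2 and 1367 in replicate 1, and a ratio of 0.815 with an interval of 0.753 to 0.882. It overlaps Polr2b on the opposite strand by 85 bases. All 4 of these genes were lower in replicate 2 under TMM scaling, and Igfbp7 was slightly higher there under the spike-in scaling given below.

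The remaining binding proteins, Igfbp6 and Igfbp2, did not have lower counts in replicate 2. Igfbp6 (ENSMUSG00000023046.6, chr15:102144362-102149511), which prefers IGF2 to IGF1, had 16.7 TPM in replicate 2, against 15.6 TPM in replicate 1, from 546 counts in replicate 2 and 483 in replicate 1. Its ratio was 1.08 with an interval of 0.952 to 1.22, which includes 1. Igfbp2 (ENSMUSG00000039323.18, chr1:72824503-72852474), abundant in fetal tissue and liver, had 6 counts in replicate 2 and 0 in replicate 1. The count of 0 in replicate 1 allows up to 0.0800 CPM, taking 3 counts of the library total as the limit, while the 6 counts of replicate 2 stand at 0.148 CPM. The 95% counting interval of its scaled ratio began at 1.12 and had no upper end. At this depth it was near the limit of detection in this muscle.

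Between the libraries, 2 of the 8 genes that averaged at least 100 counts were more than 1.5-fold lower in replicate 2, namely Igfbp5 and Igfbp3, beside 3.34% of the 9996 genes tested in the same way. None of the 8 was more than 1.5-fold higher, beside 5.64% of all genes tested. At 2-fold, 1 of the 8, Igfbp5, was lower, beside 1.21% of all genes, and 0 were higher, beside 2.09%. The counting interval left out 1 for 6 of the 8, beside 49.1% of all genes tested, a share that depends on how many counts a gene has. The median log2 ratio of the 8 was -0.22, beside -0.01 over all genes tested. Igf1r and Igfbp6 had ratios above 1, and the other 6 had ratios below 1. These counts describe 2 libraries, and the genes were chosen by name with earlier results of these data known.

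The summed fat cell, nerve and red blood cell markers were lower in replicate 2, as were Igfbp5 and Igfbp3, and the summed tendon, lymphocyte and liver markers were higher there. The muscle fibre list was split, with the 3 slow-fibre genes higher in replicate 2 and the other 5, Acta1, Ckm, Mylpf, Tnnt3 and Myh4, lower at ratios of 0.651 to 0.816. Of the 6 endothelial markers only Kdr was beyond 1.5-fold, at a ratio of 1.93, with Cldn5 lowest at 0.866. Of the 6 pericyte and smooth muscle markers only Cspg4 was, at 1.95, with Acta2 lowest at 0.747. The median log2 ratios of these lists were 0.22 and 0.15. A difference in the part of the muscle sampled, like that in cell make-up, cannot be told apart from other differences between the libraries, and the part of these markers in the ratios of Igfbp5 and Igfbp3 was not tested. In bulk RNA, fewer cells of a type and less RNA per cell cannot be told apart. The scaling also sets the size of every ratio. Scaled to the spike-in total, all log2 ratios were 0.39 higher, and Igf1, Igf2r and Igfbp7 then also had ratios above 1. Under that scaling Igfbp5 had a ratio of 0.596, still beyond 1.5-fold lower, Igfbp3 a ratio of 0.742, inside 1.5-fold, and Igf1r a ratio of 1.51, just beyond 1.5-fold higher.

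**Figure D2:**
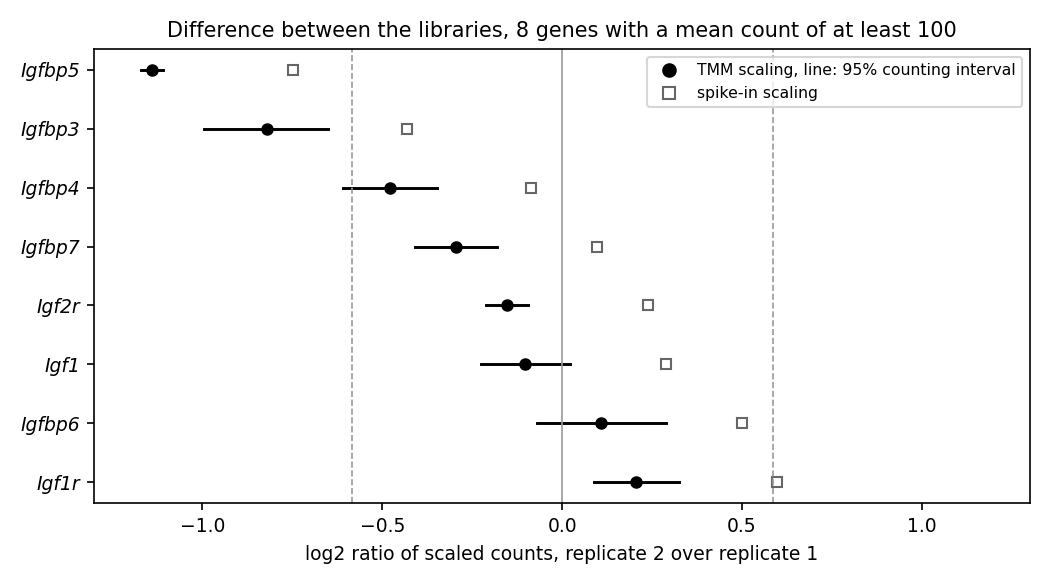
Log2 ratio of scaled counts, replicate 2 over replicate 1, for the 8 genes that averaged at least 100 counts; circles and lines are TMM scaling with its 95% counting interval, squares are spike-in scaling, and dashed lines mark 1.5-fold. Igfbp5 and Igfbp3 lie left of the lower dashed line under TMM, and Igfbp5 alone stays there under spike-in scaling.

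Comparisons inside a library do not depend on scaling between libraries. Igfbp5 was at 9.19 times the TPM of Igf1 in replicate 2 and at 16.7 times in replicate 1. It held 48.3% of the summed TPM of the 6 binding proteins in replicate 2 and 62.0% in replicate 1. Igfbp7 came next, with 25.9% in replicate 2 and 18.6% in replicate 1. Igfbp6 held 12.2% in replicate 2 and 6.58% in replicate 1. The shares of Igfbp4, at 9.14% in replicate 2 and 8.32% in replicate 1, and of Igfbp3, at 4.35% in replicate 2 and 4.50% in replicate 1, lay close together. All 6 summed to 137 TPM in replicate 2, against 237 TPM in replicate 1, and without Igfbp5 to 71 TPM in replicate 2 and 90.0 in replicate 1. The summed binding protein level was 19.0 times that of Igf1 in replicate 2 and 26.9 times in replicate 1. Set against Igf1 and Igf2 together, it was 3.32 times in replicate 2 and 2.60 times in replicate 1.

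**Figure D3:**
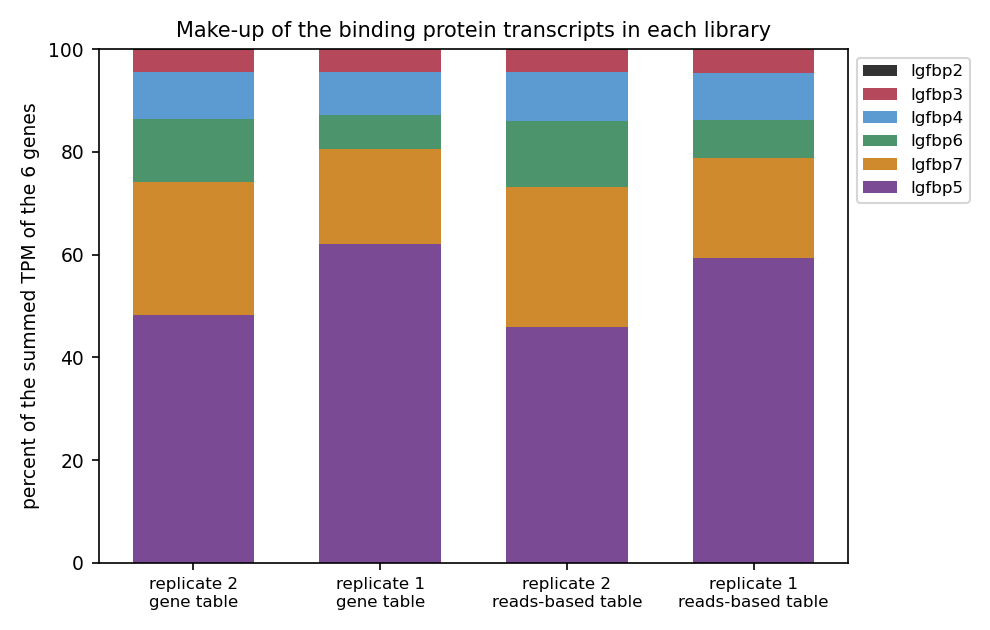
Share of the summed TPM of the 6 binding proteins, in percent, for replicate 2 left of replicate 1, first in the gene table and then in the reads-based table. Igfbp5 is the largest part of every bar, at 48.3% in replicate 2 and 62.0% in replicate 1 in the gene table; Igfbp2 is too small to see.

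The reads-based table gave higher TPM for all 8 detected genes in both libraries. The gene table stood at 0.568 to 0.784 of the reads-based value over these genes and libraries. Over all protein-coding genes detected in both libraries the median of that ratio was 0.702 in replicate 2 and 0.652 in replicate 1, so the offset was general. The make-up of the binding proteins was close to that of the gene table, with Igfbp5 at 46.0% in replicate 2 and 59.4% in replicate 1. In the gene table the deposited posterior SD of the count was 0 for all 9 genes in both libraries, and their expected counts were whole numbers, so no reads of theirs were divided with another gene.

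At the level of transcripts, the 9 genes have 33 annotated models, of which 21 are protein-coding. In the alignment-based table the leading transcript held at least 50% of the TPM of its gene in both libraries for all 8 detected genes. The leading transcript was the same in the reads-based table for 7 of the 8. Igf2r-201 held 98.6% in replicate 2 and 99.2% in replicate 1, Igfbp3-201 held 99.0% in replicate 2 and 97.7% in replicate 1, Igfbp5-201 held 99.5% in replicate 2 and 99.7% in replicate 1, and Igfbp7-201 held 100% in replicate 2 and 99.6% in replicate 1, all in the alignment-based table. Igfbp6 has 1 annotated transcript, Igfbp6-201. All 6 counts of Igfbp2 in replicate 2 fell on Igfbp2-201.

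Igf1 was carried mostly by 1 long transcript, and its minor forms depended on the table. Igf1-202, a model of 7052 bases with the upstream leader and without the 52-base exon, had 4.30 TPM in replicate 2, against 4.46 TPM in replicate 1 in the alignment-based table. That was 59.6% of the TPM of Igf1 in replicate 2 and 50.5% in replicate 1. In the reads-based table its share was 51.4% in replicate 2 and 43.8% in replicate 1. Most of its length is beyond the coding part, which is 6.51% of the transcript. TPM divides counts by length, so the share of counts was higher, at 90.6% in replicate 2 and 86.8% in replicate 1 in the alignment-based table.

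The next transcripts were different ones in each table. Igf1-206, with the downstream leader and the 52-base exon, held 19.7% of the alignment-based TPM in replicate 2 and 24.7% in replicate 1. In the reads-based table it held 20.3% in replicate 2 and 24.9% in replicate 1. Both tables thus placed it alike, on 25.3 counts in replicate 2 and 36.7 in replicate 1 in the alignment-based table. The deposited credibility bounds for Igf1-206 there were wide, 0.000528 to 2.03 TPM in replicate 2 and 0.0839 to 2.88 TPM in replicate 1. Igf1-203, with the upstream leader and the 52-base exon, held 16.8% of the alignment-based TPM in replicate 2 and 22.7% in replicate 1, and was listed at 0 in the reads-based table in both libraries. Igf1-205, with the downstream leader and no 52-base exon, was listed at 0 in the alignment-based table in both libraries, and held 23.2% of the reads-based TPM in replicate 2 and 29.6% in replicate 1. Those reads-based shares of Igf1-205 rest on 34.2 counts in replicate 2 and 52.4 in replicate 1.

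Grouped by the features printed above, transcripts that include the 52-base exon held 36.5% of the alignment-based TPM of Igf1 in replicate 2 and 47.3% in replicate 1. In the reads-based table they held 20.3% in replicate 2 and 24.9% in replicate 1. As a share of counts they held 8.16% in replicate 2 and 12.2% in replicate 1 in the alignment-based table, and 1.71% in replicate 2 and 2.48% in replicate 1 in the reads-based table. Transcripts with the downstream leader held 23.6% of the alignment-based TPM in replicate 2 and 26.8% in replicate 1, and 48.6% in replicate 2 and 56.2% in replicate 1 of the reads-based TPM. Their share of counts was far smaller, at 3.61% in replicate 2 and 4.36% in replicate 1 in the alignment-based table. In the reads-based table that share of counts was 6.41% in replicate 2 and 7.85% in replicate 1. Transcripts that skip the exon held 62.8% of the alignment-based TPM in replicate 2 and 51.3% in replicate 1. In the reads-based table they held 78.1% in replicate 2 and 73.4% in replicate 1. Skipping had the larger estimate throughout, but alignment-based replicate 1 was close to a tie, and Igf1-203 there had bounds of 1.12 to 2.78 TPM. The shares of the downstream leader and of the including transcripts differed more than 1.5-fold between the tables. Of Igf1-201, which reads on past the exon, 0.69% of the alignment-based TPM was found in replicate 2 and 1.36% in replicate 1.

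**Figure D4:**
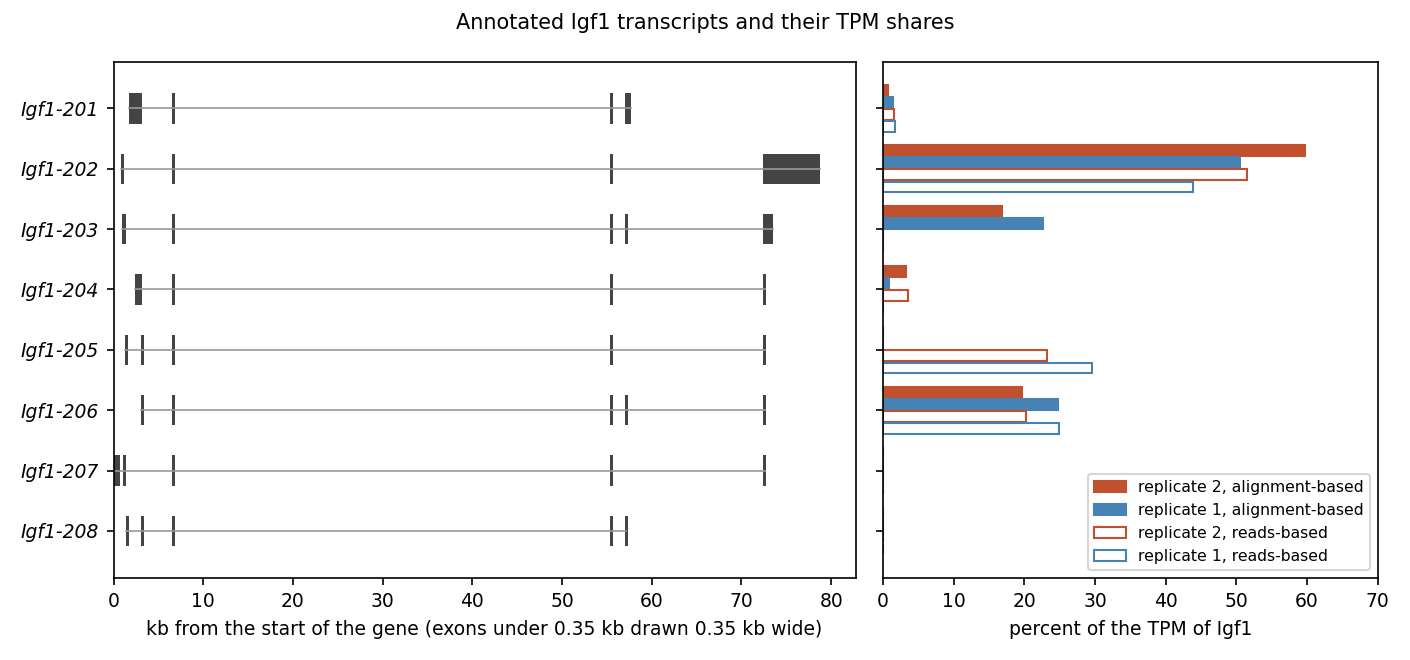
Left, exons of the 8 annotated Igf1 transcripts as boxes by distance in kb from the start of the gene; right, the percent of the TPM of Igf1 held by each, replicate 2 above replicate 1, filled for the alignment-based and open for the reads-based table. Igf1-202, with the long last exon, leads in all 4 cases, at 59.6% in replicate 2 and 50.5% in replicate 1 in the alignment-based table; Igf1-203 has filled bars only and Igf1-205 open bars only.

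Igfbp4 was the gene whose leading transcript differed between tables. Its coding transcript Igfbp4-201 held 46.6% of the alignment-based TPM in replicate 2 and 39.1% in replicate 1, and 41.4% in replicate 2 and 34.5% in replicate 1 of the reads-based TPM. Igfbp4-203, a processed transcript of 785 bases with another first exon, held 51.7% of the alignment-based TPM in replicate 2 and 59.5% in replicate 1. Its reads-based share was 0.861% in replicate 2, and it was listed at 0 in replicate 1. Igfbp4-202, a processed transcript of 799 bases that differs from Igfbp4-203 at its first exon and its end, was listed at 0 in the alignment-based table in both libraries. It held 51.2% of the reads-based TPM in replicate 2 and 55.7% in replicate 1. The 3 non-coding models together held 53.4% in replicate 2 and 60.1% in replicate 1 of the alignment-based TPM, and 58.6% in replicate 2 and 65.5% in replicate 1 of the reads-based TPM. As a share of counts they held 17.2% in replicate 2 and 21.9% in replicate 1 in the alignment-based table, and 14.6% in replicate 2 and 18.5% in replicate 1 in the reads-based table. Both tables thus put a like share outside the coding model and chose different short models for it.

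Igf1r-201, the coding transcript of Igf1r, held 81.6% of the alignment-based TPM in replicate 2 and 76.5% in replicate 1, and 76.2% in replicate 2 and 85.3% in replicate 1 of the reads-based TPM. The remainder was spread over 5 retained-intron models, none of which reached a mean share of 10% in either table. In counts, these 5 models held 4.14% in replicate 2 and 4.30% in replicate 1 in the alignment-based table.

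Promoter sequences from RefSeq (GRCm38.p6, 250 bases before to 50 after the listed start) were found for all 9 genes, with 2 entries for Igfbp2. The Igf1 entry, chr10:87860861-87861160, lies past the end of the upstream leader at position 87859412. It is thus not the promoter of transcripts with the upstream leader, among them the leading Igf1 transcript. The promoter of those transcripts was not searched. The TATA-like motif TATAAA and its variants, which read TATATA or else TATTTA, were searched on both strands. They were found in Igfbp3, Igfbp4, Igfbp5 and Igfbp6, beside 25.8% of the 32851 promoters of that length. In Igfbp3, Igfbp4 and Igfbp5 a motif could be read on the strand of the gene, beginning 30 bases before the listed start in Igfbp3, 28 in Igfbp4 and 51 in Igfbp5. TATATA, the Igfbp3 motif, reads the same on both strands, so for Igfbp3 the strand carries no information. These 3 promoters are shown from 100 bases before to 20 after the start, with the motif in capitals. They were picked after the values were seen, for a motif on the gene strand and the lowest ratios of the 8 detected genes. The choice itself thus joins motif and ratio, and a link between them was not tested. The match is a description of letters and not a shown site. The stretches are chr11:7213904-7214023 on the reverse strand, chr11:99041144-99041263 on the forward strand and chr1:72874846-72874965 on the reverse strand.
Igfbp3 promoter: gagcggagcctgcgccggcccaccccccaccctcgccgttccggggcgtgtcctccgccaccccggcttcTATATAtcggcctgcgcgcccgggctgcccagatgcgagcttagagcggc
Igfbp4 promoter: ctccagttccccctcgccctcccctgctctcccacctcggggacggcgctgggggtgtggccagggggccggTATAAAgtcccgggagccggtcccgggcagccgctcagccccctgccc
Igfbp5 promoter: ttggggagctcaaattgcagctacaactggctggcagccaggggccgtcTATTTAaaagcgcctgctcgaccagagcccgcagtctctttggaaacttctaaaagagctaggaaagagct
The Igfbp3 and Igfbp4 windows were rich in G and C, at 71.7% and 71.3%, and the Igfbp5 window had 56.3%, beside a median of 52.7% over all promoters. The motif GGGCGG, searched on both strands, was found in the promoters of Igf1r, Igf2r, Igfbp2 and Igfbp7, beside 35.7% of all promoters. No promoter entry of the 9 genes held both kinds of motif.

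Other genes of the pathway were read from 6 lists of 54 genes, of which 42 were detected in both libraries and 42 had a mean count of at least 100. More than 1.5-fold, 2 of the 42 were higher and 4 lower in replicate 2, beside the 5.64% and 3.34% of all genes given above. The median log2 ratio of the 42 was -0.07. With spike-in scaling, an alternative chosen after seeing the data, 6 were higher and 1, Igf2, was lower, while Stc2, Htra1 and Foxo1 lay inside 1.5-fold. Among ligands, carriers and proteases outside the 9 genes, 4 of 10 were detected and 3 were more than 1.5-fold lower in replicate 2. These were Igf2, with a ratio of 0.478, Stc2, a stanniocalcin that inhibits Pappa, with 4.45 TPM in replicate 2, against 7.80 TPM in replicate 1, and Htra1, a secreted serine protease, with 10.8 TPM in replicate 2 and 17.9 in replicate 1. The fourth, Igfals, which stabilises circulating IGF complexes and was picked for mention after its values were seen, had 1.28 TPM in replicate 2, against 2.14 TPM in replicate 1. Below 1 TPM in both libraries were Igfbp1 and Igfbpl1, each with 0 counts in both, and Pappa, Pappa2, Stc1 and Adam12. Pappa, a protease of Igfbp4 and Igfbp5, had 0.16 TPM in replicate 2, against 0.43 TPM in replicate 1.

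In the receptor and sorting list, 5 of 6 genes were detected and none was beyond 1.5-fold. Its leading genes were Insr, M6pr and Gnptab, which tags lysosomal enzymes, at 7.53 TPM in replicate 2, against 5.68 TPM in replicate 1. The scaled count ratio of Gnptab went the other way, at 0.939 with an interval of 0.854 to 1.03, which includes 1. Insrr, the third receptor of the insulin family, had 0 counts in both libraries. In the growth hormone list, 6 of 7 genes were detected, with 1 higher and 0 lower. Ghr, the growth hormone receptor, had 47.2 TPM in replicate 2, against 57.9 TPM in replicate 1, and Stat5b, which carries its signal to genes such as Igf1, had 53.1 TPM in replicate 2 and 57.95 in replicate 1. Jak2, the kinase on the receptor, had 11.6 TPM in replicate 2, against 9.78 TPM in replicate 1. Cish, a feedback inhibitor that this signal induces, was the gene beyond 1.5-fold among those with a mean count of at least 100, at 12.7 TPM in replicate 2, against 8.54 TPM in replicate 1, with a count ratio of 2.14 and an interval of 1.87 to 2.46. Socs3, another inhibitor, passed 1 TPM in replicate 2 alone, with 1.84 TPM there and 0.65 TPM in replicate 1. Its count ratio was also 2.14, with an interval of 1.52 to 3.06, on a mean count below 100, and it was picked for mention after its values were seen.

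Downstream of the receptor, 11 of 12 substrates and PI3K genes were detected, with 1 higher and 0 lower in replicate 2. The higher one was Irs2, an insulin receptor substrate, at 7.42 TPM in replicate 2, against 4.36 TPM in replicate 1, with a ratio of 1.71 and an interval of 1.57 to 1.87. Irs1, the main substrate in muscle, had 18.2 TPM in replicate 2, against 25.6 TPM in replicate 1. The adaptor Grb10, which restrains both receptors, had 24.5 TPM in replicate 2 and 28.1 in replicate 1, and the adaptor Grb2 had 22.1 TPM in replicate 2 and 24.4 in replicate 1. Irs4 had 0 counts in both libraries. All 16 Akt, mTOR and FoxO genes were detected, with 0 higher and 1 lower. That gene was Foxo1, a transcription factor that Akt holds out of the nucleus, at 7.43 TPM in replicate 2, against 14.6 TPM in replicate 1, with a ratio of 0.513. Akt2 led the list at 55.8 TPM in replicate 2, against 65.7 TPM in replicate 1, followed by Foxo4 at 45.5 TPM in replicate 2 and 47.9 in replicate 1 and by Eif4ebp1, an mTOR target, at 31.4 TPM in replicate 2 and 29.8 in replicate 1. None of the 3 IGF2 mRNA-binding proteins was detected in both libraries, and Igf2bp2 was the highest, at 0.82 TPM in replicate 2, against 1.42 TPM in replicate 1, while Igf2bp1 had 1 count in replicate 2 and 0 in replicate 1 and Igf2bp3 had 4 in replicate 2 and 3 in replicate 1.

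**Figure D5:**
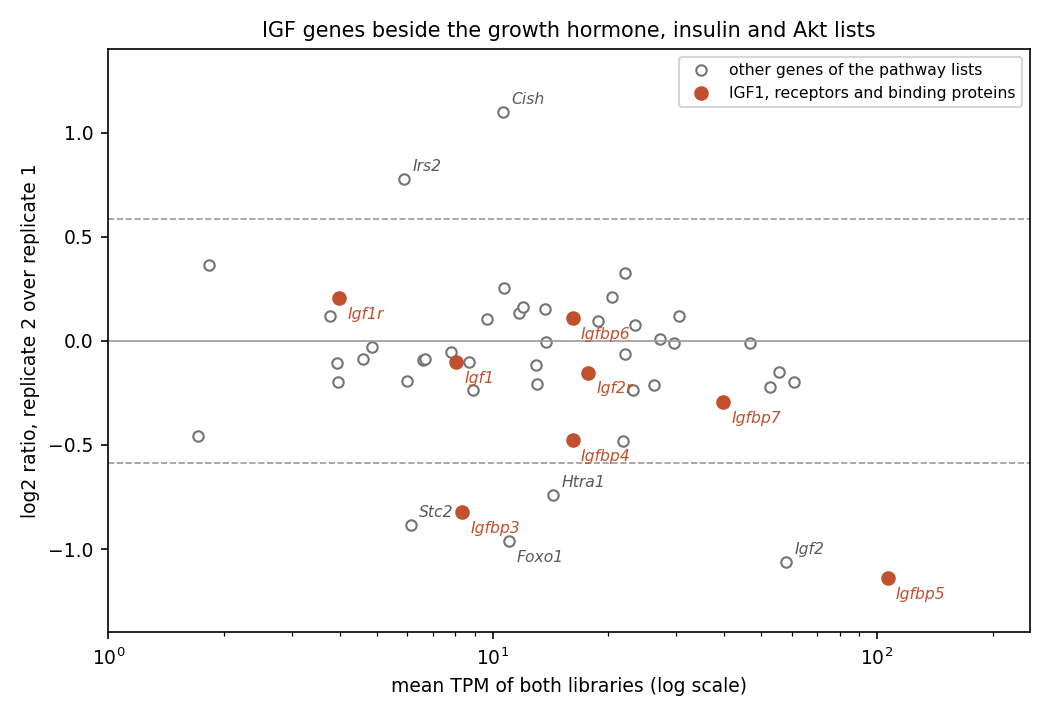
Mean TPM on a log axis against the log2 ratio, replicate 2 over replicate 1, for the 8 IGF genes (filled) and the 42 other pathway genes (open) with a mean count of at least 100; dashed lines mark 1.5-fold. Cish and Irs2 lie above the upper line, and Igfbp5, Igfbp3, Igf2, Foxo1, Stc2 and Htra1 below the lower one, while the remaining receptors, kinases and adaptors lie between the lines.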

How the data were processed

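Values came from 2 total RNA libraries of 1 group. The labels give the replicate numbers. The genes and lists were chosen with earlier results of these data known.

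For each library the authors deposited a gene table, a transcript table made from alignments and a transcript table made from the reads, on mm10 with GENCODE M21, per the deposited file descriptions. The quantification programs were not given in the sources used here. The deposited expected counts are estimated counts without normalisation, and deposited TPM and FPKM values are scaled over all rows, spike-ins included. The authors' gene and alignment-based tables also hold a score, the posterior SD of each count, read here as the uncertainty of dividing reads between genes. Total RNA includes unspliced RNA, and reads of castaneus alleles were placed on a C57BL/6J reference; their effect on levels was not tested.

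Expected counts were rounded and scaled by TMM in edgeR 4.0.16 (R 4.3.3), with a prior count of 0.5. DESeq2 1.42.0 size factors and the spike-in total were alternatives. Detection was 1 TPM in both libraries. Calls were beyond 1.5-fold at a mean count of at least 100. Counting intervals are exact (Clopper-Pearson, 95%) and, like the limit of 3 counts, cover counting error only. Other steps used Python 3.11.15 with scipy 1.17.1. The ratio step was checked on simulated data that held counting error and 2-fold changes only. Such data lack the other spread between libraries, so the check does not cover it. Named transcripts were the leading ones in each table and those with a mean share of at least 10%. Named pathway genes were, in each list, the 3 highest, the detected ones beyond 1.5-fold and those under 1 TPM in both libraries.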

Additional observations from a re-analysis of the deposited data

How the results depend on the processing

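No paired analysis was possible because 1 group holds both libraries. The count of 8 detected genes was the same in the reads-based table, in FPKM, with TPM taken over nuclear protein-coding genes, at 0.5 TPM and with either replicate left out, and it was 7 at 5 TPM, where Igf1r was lost. The count of 2 genes beyond 1.5-fold was 1 at 2-fold, where Igfbp5 remained. It was 2 with DESeq2 size factors, total counts, the edgeR filter before TMM and reads-based counts, with Igfbp5 and Igfbp3 in each. It was 3 by the ratio of TPM, which added Igfbp4. With spike-in scaling it was 2, Igfbp5 lower and Igf1r higher. The log2 ratio of Igfbp5 ranged from -1.18 to -0.75 over all alternatives and that of Igfbp3 from -0.88 to -0.43; the cause of the spike-in shift was not tested. The count of 6 pathway genes beyond 1.5-fold was 7 with spike-in scaling, with other genes among them. The count of 8 leading transcripts at or over 50% was 7 in the reads-based table, where Igf1-202 fell short, and ranged from 8 to 9 with 1 replicate left out. Depth limits Igfbp2 and the minor Igf1 transcripts, which rest on under 100 counts each.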
